A study of Mus musculus with 17 samples.

Results

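Endoglin, the product of Eng, is a co-receptor of the TGF-beta family, and the 10 genes described here are Eng and 9 receptors that share its ligands or bind beside it: Tgfbr3, Acvrl1, Tgfbr1, Acvr1, Bmpr1a, Bmpr2, Tgfbr2, Acvr2a and Acvr2b. They were taken by gene symbol, as 10 of the 49585 gene identifiers counted in every library. The libraries came from endothelial cells of mouse bone marrow, 1 library per animal. In the KO animals, exons 5 and 6 of Eng lie between loxP sites (Eng f/f) and a tamoxifen-inducible Cre (CreERT2) is driven by the promoter of Cdh5, which is active in endothelium. All 17 animals, WT included, received tamoxifen, which the series gives at an age of 8 weeks. Whether the WT animals carried Cre is not stated in the labels. Cells were taken 2 weeks later (4 WT and 4 KO animals, with 2 females and 2 males in each group) or 4 weeks later (5 WT animals, 2 female and 3 male, and 4 KO animals, 1 female and 3 male). Library names join the letter for sex to the number in the title (f1, m2), and the 1 without a number is called f. Per the protocol, the sort took CD31+ Sca1+ cells and left out those with CD45 or Ter119; the design text gives this gate without Sca1.

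Ligands of this family bind a complex of type I and type II serine/threonine kinase receptors. The type II receptor phosphorylates the type I receptor, which then phosphorylates SMAD proteins. Co-receptors without kinase activity, Endoglin and betaglycan (Tgfbr3), bind ligand and modulate its presentation. In endothelium, BMP9 and BMP10 signal through ALK1 (Acvrl1) with BMPR2 and Endoglin, and mutations of ENG or ACVRL1 cause hereditary hemorrhagic telangiectasia, a disease of malformed vessels. TGF-beta itself signals through ALK5 (Tgfbr1) and TGFBR2.

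The sequences below show what Cre removes, and therefore what a count over the whole Eng gene can and cannot register. Eng (ENSMUSG00000026814) lies on chromosome 2, 32646595 to 32682669, plus strand of GRCm38, and its main coding transcript Eng-201 has 15 exons and 3422 bases. Exon 5, at chr2:32672218-32672383, has 166 coding bases and exon 6, at chr2:32672837-32672957, has 121. Both are printed 5′ to 3′ from the GENCODE M21 transcript, followed by the end of exon 4 joined to the start of exon 7, with the stop codon read in frame in capitals.
exon 5: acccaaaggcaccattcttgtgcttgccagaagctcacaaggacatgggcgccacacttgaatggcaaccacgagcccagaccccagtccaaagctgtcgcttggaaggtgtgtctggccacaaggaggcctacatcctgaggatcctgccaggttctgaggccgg
exon 6: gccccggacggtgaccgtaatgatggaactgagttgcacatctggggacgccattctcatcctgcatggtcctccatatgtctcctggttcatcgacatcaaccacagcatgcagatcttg
exon 4 to exon 7: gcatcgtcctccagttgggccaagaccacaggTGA
The 287 bases removed leave a remainder of 2 when divided by 3, so the reading frame is lost. In the joined reference sequence a stop codon follows 179 codons, of which the first 176 lie before the junction, and the unbroken protein has 653 residues. The deleted bases are 8.39% of the transcript, and the other 91.6% can still be sequenced and counted if a transcript without these exons is made. The Eng counts thus measure transcript from the whole gene and give no direct reading of recombination. These values come from the reference alone, since the deposited counts hold no exons.

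Total counts per library were 26705337 to 40882715 at 2 weeks and 20477400 to 33726630 at 4 weeks. Levels are given in CPM, the usual scaling of a count to the total of its library. The 2-week libraries held 10886 to 13583 genes with a count and 22.2% to 29.5% mitochondrial counts, against 15996 to 21235 genes and 4.66% to 8.99% at 4 weeks. No batch is labelled, so a batch cannot be told apart from the time. The floor of detection, 3 counts, came to 0.0734 to 0.112 CPM at 2 weeks and 0.089 to 0.147 CPM at 4 weeks. Each of 10 endothelial markers was above the floor in at least 1 library of every group, with summed levels of 4101 to 5519 CPM at 2 weeks and 8113 to 10546 CPM at 4 weeks. The summed level of 9 neutrophil genes was 4104 CPM in the KO male m2 and 3150.0 CPM in the KO male m3 at 2 weeks, and 22.6 to 237.5 CPM in the other 6 libraries of that time. Ptprc, which encodes CD45, was at 0 in the 4 WT libraries at 2 weeks and reached 15.6 CPM in KO. The 4-week libraries fell into 2 sets along the first principal component of log2 CPM centred on group means, which held 41.7% of the variance over 6862 genes. Set 1 comprised WT f, m1 and m2 with KO m1 and m2, and set 2 comprised WT f3 and m3 with KO f2 and m3. The sets were drawn from these values and not from a label.

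Eng was lower in every KO library than in every WT library of its time. At 2 weeks it was at 1116, 1083, 705 and 1307 CPM in WT f1, f4, m2 and m3. In the KO libraries f1, f4, m2 and m3 it was at 225, 266, 347 and 259 CPM. The KO values were thus close together, at 21.4% to 33.0% of the WT mean, and the nearest WT library, m2, was itself at 66.9% of that mean. At 4 weeks WT f, f3, m1, m2 and m3 were at 2594, 2633, 2399.8, 2735 and 2574 CPM. KO f2, m1, m2 and m3 were at 873, 322, 1647 and 274 CPM. Here WT was uniform and KO was not: KO m2 kept 63.7% of the WT mean and KO m3 10.6%, a range within KO of 274 to 1647 CPM. The group means were 1053 ± 252 CPM (SD, n = 4) and 274.3 ± 51.8 CPM (SD, n = 4) at 2 weeks, and 2587 ± 122 CPM (SD, n = 5) and 779 ± 640 CPM (SD, n = 4) at 4 weeks. Markers of other cells moved with genotype as well. At 2 weeks the summed level of 10 erythroid markers was 61.4 to 253 CPM in WT and 278 to 1258 CPM in KO, and that of 8 macrophage and monocyte markers 39.004 to 79.3 CPM and 92.5 to 459 CPM, both without overlap. In the second list Lyz2, which neutrophils also express, had means of 15.6 and 162 CPM in WT and KO, and Vcam1 had 20.4 and 54.8 CPM. C1qb and Cd68 went the other way, with WT means of 12.7 and 0.734 CPM and no count in KO. The sum of 10 stroma and pericyte markers was 2336 to 3507 CPM in WT and 1952 to 2282 CPM in KO, also without overlap. Most of that sum came from Cxcl12, Rgs5 and Kitl, with WT means of 1247, 1124 and 387 CPM and KO means of 962, 739.8 and 249 CPM. Others of the list had higher KO means, such as Lepr (5.71 and 19.97 CPM in WT and KO) and Col1a2 (19.3 and 38.7 CPM). The endothelial sum overlapped, at 4199 to 5519 CPM and 4101 to 4479 CPM. At 4 weeks the erythroid sum had a median of 286 CPM in WT (172 to 1301 CPM) and of 1979 CPM in KO (621 to 2918 CPM), and the ranges overlapped. The part of these cells in the Eng difference was not tested. In bulk RNA, a mixture of cells with and without the transcript and a lower level in every cell cannot be told apart.

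A two-sided exact permutation test on log2 CPM had p = 0.0286 at 2 weeks. At 4 weeks the same exact permutation test had p = 0.0159. With the one-sided share doubled, no smaller p is possible for these group sizes. In edgeR's quasi-likelihood fit at 2 weeks, Eng had the smallest p of 10477 genes, with a log2 fold change of -1.96 (SE 0.249). Its adjusted p by Benjamini-Hochberg was 0.612 in edgeR, 0.417 in limma voom and 1.629e-13 in DESeq2. At 4 weeks the change was -1.72 (SE 0.501), with an adjusted p of 0.9997 in edgeR. Averaged over both times it was -1.83 (SE 0.31), with an adjusted p of 0.0378 in edgeR, and the difference between the effects at 4 and 2 weeks was 0.19 (SE 0.592; adjusted p = 1 in edgeR). The call in the averaged fit was not stable: with the title number as a replicate block the change was -2.11 and the adjusted p in edgeR was 0.688, and leaving out any 1 of 10 single libraries put it between 0.0502 and 0.125. Over all alternatives its adjusted p ran from 9.464e-09 to 0.688. Without the 4-week KO male m2, the fitted 4-week change was -2.49.

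**Figure D1:**
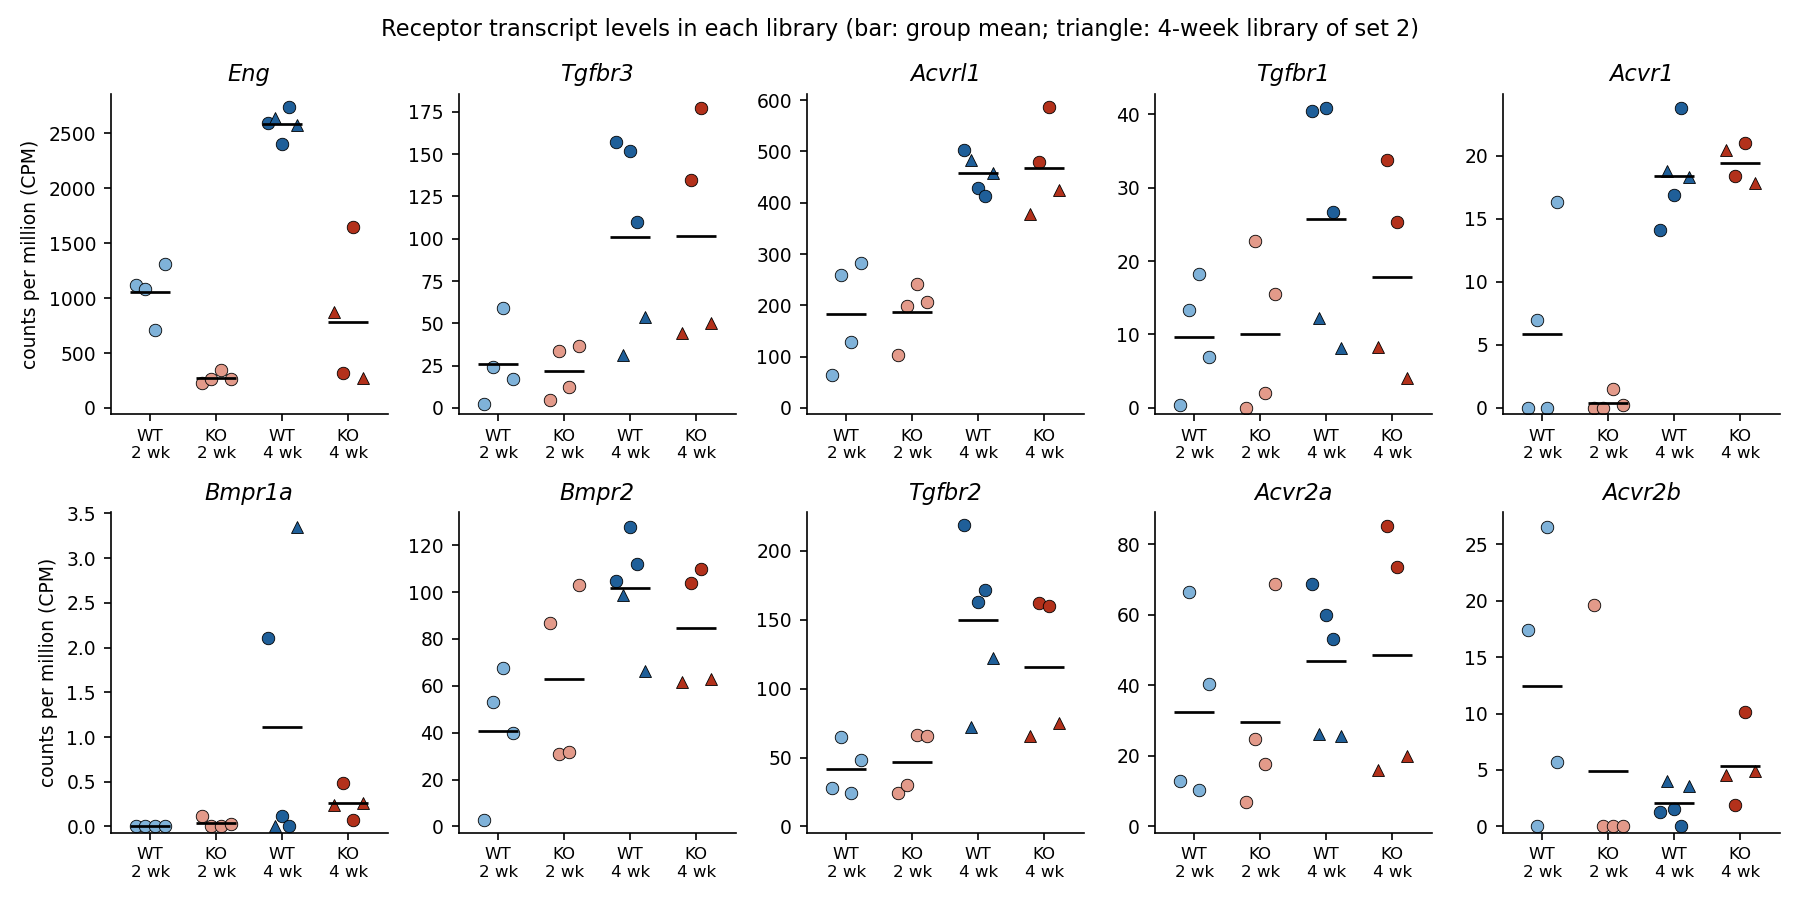
Level of each receptor transcript in CPM (vertical axes, each including 0 and scaled to its gene) in the 17 libraries, by genotype and time; points are libraries, bars are group means, and triangles are the 4-week libraries of set 2. Eng separates KO from WT at both times, while Tgfbr1, Tgfbr3 and Acvr2a separate triangles from circles at 4 weeks.

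Among all 10477 genes tested at 2 weeks, 1.78% had every KO library below every WT library, and 0.526% of 15209 did at 4 weeks. Eng was the 1 receptor of 8 tested with this separation at 2 weeks and the 1 of 9 at 4 weeks. At 2 weeks Bmpr1a and Acvr1 did not pass the edgeR filter on low counts, and Bmpr1a did not pass it at 4 weeks. The filter removed receptors with few counts, so the 8 and 9 tested are not a sample of all 10. In the 2-week fit, 0.0% of genes passed an adjusted threshold of 0.05 (0 by edgeR, 149 by DESeq2 and 12 by limma voom). Eng was the 1 receptor among those DESeq2 passed, and limma voom passed no receptor. At an unadjusted p under 0.05 there were 276 genes by edgeR, or 2.63%, with Eng the 1 receptor among them. At 4 weeks 0.0% also passed (0 by edgeR, 17 by DESeq2, 0 by limma voom), and 422 genes, 2.77%, had an unadjusted p under 0.05 by edgeR, again with Eng as the 1 receptor. In the averaged fit 0.0962% of 13515 genes passed, 13 in number, with Eng the 1 receptor of 9 tested, and 11.1% had an unadjusted p under 0.05, again with Eng alone among the receptors. For the difference between the effects at the 2 times, 0.104% of genes passed and 9.48% had an unadjusted p under 0.05, and no receptor was in either count, nor among the genes DESeq2 (929) or limma voom (8) called.

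The other co-receptor, Tgfbr3, encodes betaglycan, which presents TGF-beta2 and inhibin. At 2 weeks its WT libraries f1, f4, m2 and m3 were at 2.45, 24.4, 59.4 and 17.3 CPM. The KO libraries were at 4.87, 33.8, 12.3 and 36.5 CPM in the same order. The ranges overlapped almost wholly, and the WT values alone spanned 2.45 to 59.4 CPM. At 4 weeks WT f, f3, m1, m2 and m3 were at 157, 31.4, 152, 109.8 and 53.8 CPM, and KO f2, m1, m2 and m3 were at 44.1, 135, 177 and 50.3 CPM. High and low values occurred in both genotypes: the low ones were WT f3 and m3 and KO f2 and m3. The fitted change was -0.01 (SE 1.17) at 2 weeks and -0.14 (SE 0.566) at 4 weeks, with 95% intervals of -2.78 to 2.77 and -1.43 to 1.14. The sign of both values turned under other settings, among them the term for the 2 sets, which gave 0.14 at 4 weeks.

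Acvrl1 encodes ALK1, the endothelial type I receptor for BMP9 and BMP10. At 2 weeks WT f1, f4, m2 and m3 were at 64.8, 259, 128 and 283 CPM, and KO f1, f4, m2 and m3 were at 103, 199, 242 and 206 CPM. The KO range lay within the WT range. At 4 weeks WT f, f3, m1, m2 and m3 were at 502, 484, 429, 412.5 and 457 CPM, and KO f2, m1, m2 and m3 were at 378, 479, 587 and 425 CPM. The WT mean, 457 ± 37.2 CPM (SD, n = 5), and the KO mean, 467 ± 89.9 CPM (SD, n = 4), differed by less than the spread within either group. In the 4-week fit its log2 change was 0.04 (SE 0.143), with a 95% interval of -0.29 to 0.37, or 0.82-fold to 1.29-fold. At 2 weeks it was 0.01 (SE 0.489), and the interval, 0.452-fold to 2.25-fold, was wider. Of the receptors other than Eng, Acvrl1 thus had the narrowest bounds at both times.

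Tgfbr1 encodes ALK5, the type I receptor for TGF-beta. At 2 weeks WT f1, f4, m2 and m3 were at 0.342, 13.3, 18.2 and 7.0 CPM, and KO f1, f4, m2 and m3 were at 0, 22.7, 2.02 and 15.6 CPM. Libraries at or near 0 and libraries above 10 CPM occurred in both genotypes. At 4 weeks WT f, f3, m1, m2 and m3 were at 40.5, 12.2, 40.8, 26.7 and 8.13 CPM, and KO f2, m1, m2 and m3 were at 8.30, 33.8, 25.3 and 4.06 CPM. The 4 libraries of set 2 held the 4 lowest values. The fitted changes, 0.17 (SE 2.11) at 2 weeks and -0.63 (SE 0.725) at 4 weeks, did not pass, and with a term for the sets the second was -0.39. Over single libraries it ran from -1.06 without KO m1 to -0.26 without KO f2.

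The remaining type I receptors were scarce. Acvr1, which encodes ALK2, ran from 14.1 to 23.8 CPM in the WT and from 17.9 to 21.0 CPM in the KO libraries of 4 weeks, a log2 difference of 0.09 (SE 0.229). At 2 weeks it was at 0, 7.02, 0 and 16.4 CPM in WT f1, f4, m2 and m3 and at 0, 0, 1.48 and 0.22 CPM in KO, so 4 of 8 libraries were at or under the floor. Bmpr1a, which encodes ALK3, was at or under 3 counts in all 8 libraries at 2 weeks and in 4 of 9 at 4 weeks. Its highest value was 3.35 CPM, in WT m3 at 4 weeks, where it had 82 counts. At these levels no genotype difference was detectable for Bmpr1a at either time or for Acvr1 at 2 weeks. In the joint fit Acvr1 had an averaged change of -2.14 (SE 1.35) and a difference between effects of 4.20 (SE 2.59), and neither passed. Without the 2-week KO male m2, or without m2 and m3, both had an unadjusted p under 0.05 in edgeR and again did not pass.

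Among the type II receptors, Bmpr2, which pairs with ALK1 for BMP9 and BMP10, was at 2.55, 53.3, 67.6 and 40.0 CPM in 2-week WT f1, f4, m2 and m3. The KO libraries f1, f4, m2 and m3 were at 86.7, 30.9, 31.6 and 103 CPM. WT f1 stood far below the other WT libraries, and the KO values lay on both sides of those of WT f4, m2 and m3. At 4 weeks WT f, f3, m1, m2 and m3 were at 105, 98.9, 128, 112 and 66.2 CPM and KO f2, m1, m2 and m3 at 61.7, 104, 109.7 and 63.0 CPM. The log2 fold changes were 0.73 (SE 0.918) and -0.30 (SE 0.245), and neither passed. The 2-week value ran from 0.29 without WT f1 to 1.62 without WT f4, and the 4-week value from -0.48 without WT m3 to -0.14 without KO f2.

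Tgfbr2, the type II receptor for TGF-beta, was at 28.1, 65.0, 24.1 and 48.4 CPM in 2-week WT f1, f4, m2 and m3 and at 24.4, 29.9, 66.4 and 65.3 CPM in KO f1, f4, m2 and m3. The high KO values were those of m2 and m3, the libraries with the most neutrophil transcript. The fitted change was 0.04 (SE 0.603) with them and -0.80 without them. At 4 weeks WT f, f3, m1, m2 and m3 were at 218, 72.3, 163, 172 and 122 CPM, and KO f2, m1, m2 and m3 were at 65.8, 162, 159.6 and 74.8 CPM. The log2 fold change was -0.45 (SE 0.361) and, with a term for the sets, -0.33, and neither passed. It ran from -0.61 without KO m1 to -0.19 without WT f.

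Acvr2a and Acvr2b encode the type II receptors for activins, which also serve BMPs. At 2 weeks Acvr2a spanned 10.3 to 66.4 CPM in WT and 7.04 to 68.9 CPM in KO, and at 25.8 to 68.8 CPM and 15.97 to 85.3 CPM at 4 weeks, so that the genotypes overlapped at both times. Acvr2b was found in some 2-week libraries and not in others. WT f1, f4, m2 and m3 were at 17.4, 0, 26.5 and 5.75 CPM and KO f1 at 19.6 CPM, and no count was recorded in KO f4, m2 or m3. The group means, 12.4 and 4.91 CPM, therefore rest on 3 and 1 libraries. The 4-week WT libraries had 0 to 4.0 CPM of Acvr2b and the KO libraries 1.87 to 10.1 CPM, a log2 difference of 1.44 (SE 1.24) that did not pass.

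**Figure D2:**
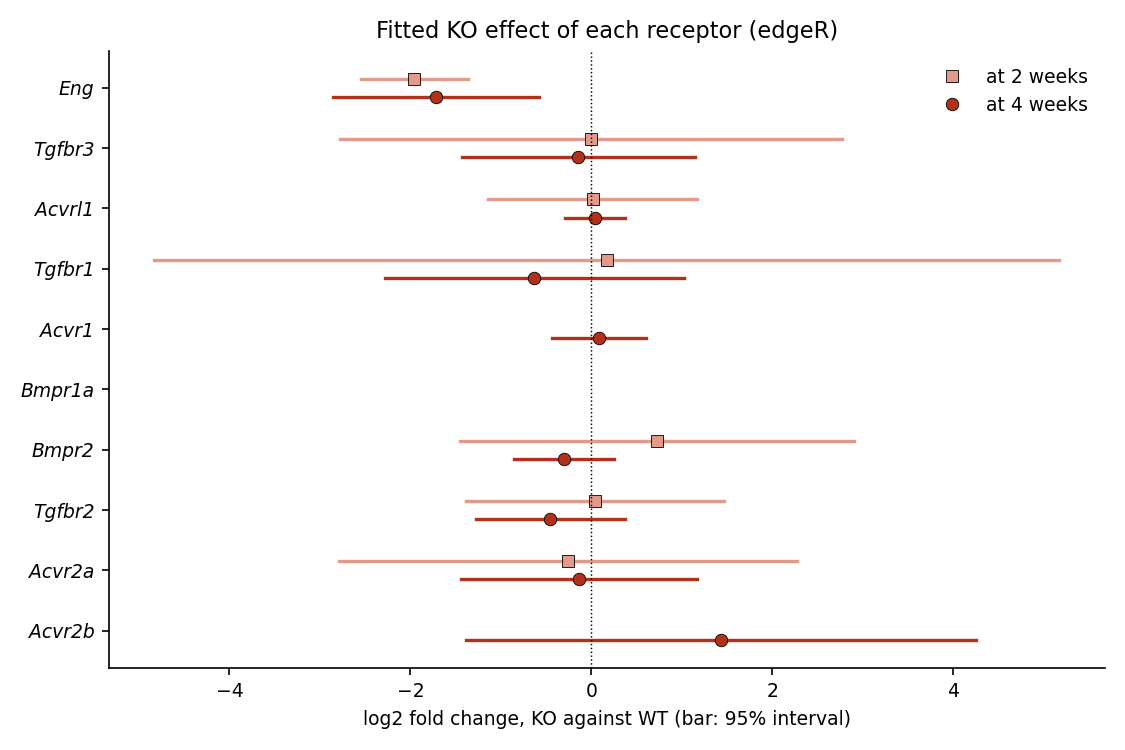
Log2 fold change of KO against WT (horizontal axis) for each receptor in the edgeR fits at 2 weeks (squares) and 4 weeks (circles), with 95% intervals. The intervals of Eng lie below 0; those of the other receptors include 0 and range in width from that of Acvrl1 at 4 weeks, -0.29 to 0.37, to that of Tgfbr1 at 2 weeks, -4.83 to 5.17. Receptors that did not pass the filter have no mark, and Acvr2b at 2 weeks is left out because 4 of its 8 libraries were at 0.

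The 2 sets of 4-week libraries differed in 5 of the 10 receptors with no overlap. Of 6577 other genes, 12.1% were higher in every library of set 1 than in every library of set 2, and 5.60% were lower. The receptors were left out of the genes that formed the sets. The sets were still drawn from the same libraries and not from a label, so the separation of the receptors is a description. Tgfbr1 was at 25.3 to 40.8 CPM in set 1 and 4.06 to 12.2 CPM in set 2. Tgfbr3 was at 109.8 to 177 CPM against 31.4 to 53.8 CPM, and Acvr2a at 53.3 to 85.3 CPM against 15.97 to 26.2 CPM. Tgfbr2 (159.6 to 218 against 65.8 to 122 CPM) and Bmpr2 (104 to 128 against 61.7 to 98.9 CPM) were also higher in set 1. Eng, Acvrl1 and Acvr1 overlapped between the sets, as did Acvr2b and Bmpr1a.

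The 5 separated receptors have longest coding transcripts of 5686 to 12899 bases, whereas those of Eng, Acvrl1, Acvr1 and Acvr2b have 3175 to 3640. Bmpr1a, with 5956 bases, was too scarce to place. Over 6577 other genes, the difference in mean log2 CPM between set 1 and set 2 had a median of 0.39 for transcripts of at least 5000 bases and -0.12 for those under 4000 bases. Every library of set 1 was above every library of set 2 in 27.6% of the former and 4.30% of the latter. The Spearman correlation between length and the set difference was 0.511 across these genes, which share libraries and are not independent replicates. The 5 separated receptors had differences of 0.65 (Bmpr2), 1.10 (Tgfbr2), 1.64 (Acvr2a), 1.71 (Tgfbr3) and 2.09 (Tgfbr1), each above the median of the long transcripts. The summed level of 10 stroma and pericyte markers also separated the sets, at 4101 to 6076 CPM in set 1 and 1730.0 to 2250 CPM in set 2. The part of transcript length or of these cells in the receptor values was not tested.

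Each set holds both genotypes, so genotypes can be set side by side within it, with 2 or 3 libraries each and no test. Tgfbr1 had means of 36.0 CPM (WT, n = 3) and 29.5 CPM (KO, n = 2) in set 1 and 10.2 and 6.18 CPM (n = 2 each) in set 2. Tgfbr3 had 139.7 and 156 CPM in set 1 and 42.6 and 47.2 CPM in set 2. Acvrl1 had 448 and 533 CPM in set 1 and 471 and 401 CPM in set 2, in opposite directions. Eng had 2576 and 984 CPM in set 1 and 2604 and 574 CPM in set 2, so its KO means were lower in both sets. The summed level of 10 erythroid markers in set 1 was 172 to 286 CPM in WT and 621 and 2918 CPM in KO. In set 2 it was 1126.5 and 1301 CPM in WT and 2503 and 1454 CPM in KO, so KO was higher within each set.

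**Figure D3:**
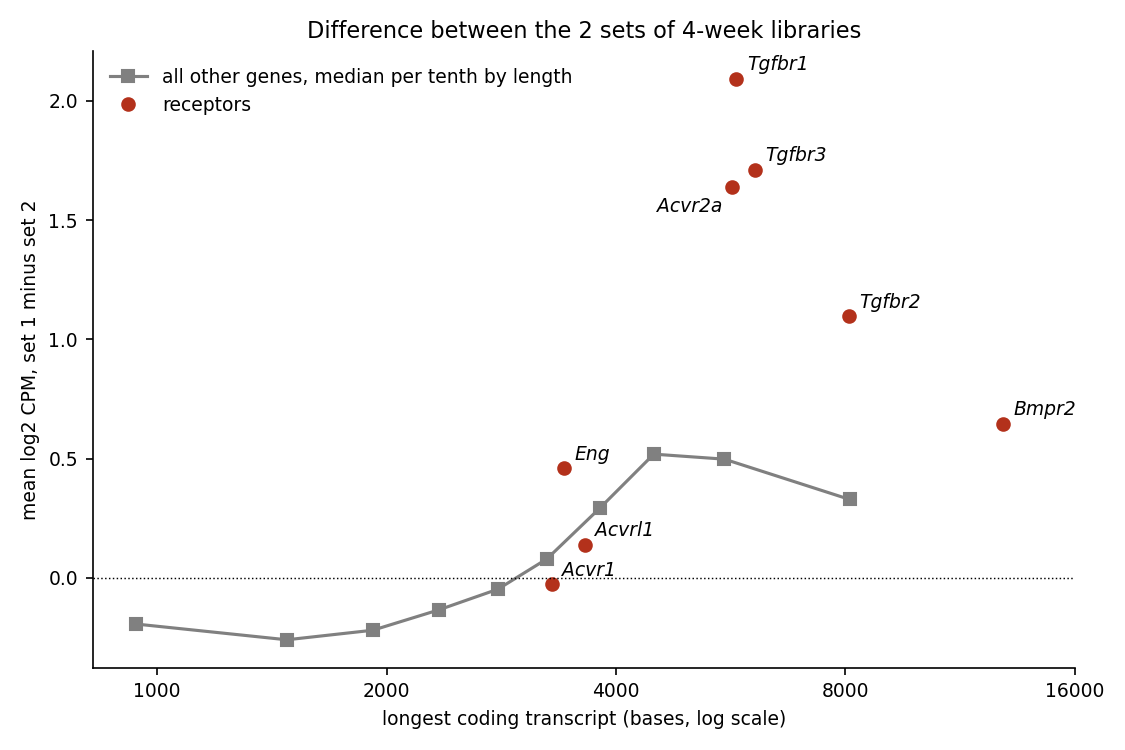
Mean log2 CPM of set 1 minus set 2 of the 4-week libraries (vertical axis) against the longest coding transcript in bases (horizontal axis, log scale). Squares are medians of 6577 other genes in 10 bins by length, which are -0.19 in the shortest bin, highest at 0.52 and 0.33 in the longest, and circles are 8 receptors, with Bmpr1a and Acvr2b left out as scarce; Tgfbr1 is highest at 2.09 and Acvr1 lowest at -0.03.

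To compare genes with each other, CPM was divided by the length of the merged exons of each gene in kb. In WT at 4 weeks the order of mean levels per kb was Eng (639), Acvrl1 (107), Tgfbr2 (18.3), Tgfbr3 (15.4), Acvr2a (8.24), Bmpr2 (5.67), Tgfbr1 (3.93), Acvr1 (3.81), Acvr2b (0.53) and Bmpr1a (0.175). Eng was above Acvrl1 and Acvrl1 above Tgfbr2 in 5 of 5 libraries, and Tgfbr3 above Acvr2a and Acvr1 above Acvr2b in 5 of 5. The other neighbours were not separated, with Tgfbr2 above Tgfbr3, Acvr2a above Bmpr2 and Bmpr2 above Tgfbr1 in 4 of 5 libraries, Acvr2b above Bmpr1a in 3, and Tgfbr1 above Acvr1 in 2.

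In KO at 4 weeks Eng had a mean of 192 CPM per kb and Acvrl1 of 109.5, but Eng was the higher of the pair in only 2 of 4 libraries, f2 and m2. In m1 and m3 Acvrl1 was the most abundant of the 10 transcripts per kb. At 2 weeks Eng was first and Acvrl1 second in every library of both genotypes, with mean levels per kb of 260.1 and 43.1 in WT and 67.8 and 44.0 in KO. Below them, Acvr2a and Tgfbr2 changed places between the genotypes without separation, at 5.72 and 5.06 CPM per kb in WT and 5.21 and 5.68 in KO.

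**Figure D4:**
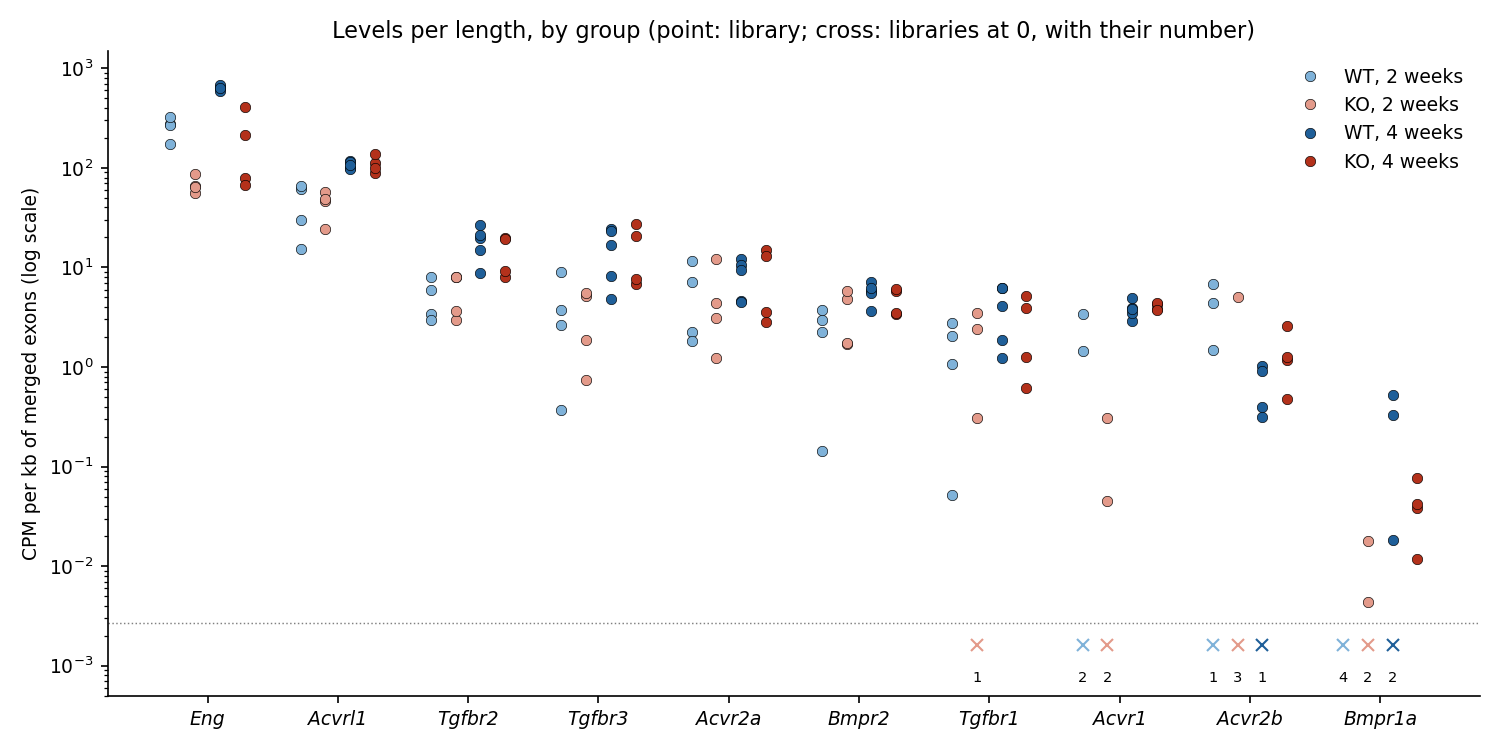
Levels per kb of merged exons (vertical axis, log scale) for the 10 receptors in order of their WT mean at 4 weeks; each point is a library, coloured by genotype and time, and crosses at the bottom with a number give libraries at 0. Eng and Acvrl1 stand above the other 8 receptors in every library, and libraries at 0 occur for Tgfbr1, Acvr1, Acvr2b and Bmpr1a.

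Summed by type, Acvrl1 made up 93.1% ± 1.92 of the type I transcript per kb in the 4-week WT libraries (SD, n = 5) and 94.2% ± 1.34 of it in the KO libraries (SD, n = 4), and the corresponding shares at 2 weeks were 94.9% ± 3.45 and 96.8% ± 3.21 (SD, n = 4 each). Type II transcript was spread over more genes. Tgfbr2 held 55.1% ± 7.02 of it in WT and 50.04% ± 2.57 in KO at 4 weeks, and Bmpr2 18.3% ± 5.60 and 17.8% ± 3.99. At 2 weeks Tgfbr2 held 30.8% ± 7.75 in WT and 38.0% ± 17.6 in KO, and Bmpr2 13.1% ± 9.49 and 21.9% ± 9.0 (SD, n = 4 each). The ratio of summed type I to summed type II transcript per kb was 3.86 ± 1.42 in WT and 4.64 ± 1.62 in KO at 4 weeks. Eng alone accounted for 79.7% ± 2.43 of the summed level of all 10 in WT at 4 weeks and 48.8% ± 19.1 in KO. At 2 weeks its share was 79.9% ± 7.83 in WT and 51.8% ± 6.36 in KO. A ratio of transcripts per kb does not give the ratio of proteins at the cell surface.

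The ratio of Eng to Acvrl1 per kb puts the co-receptor beside the type I receptor of the same complex. In 4-week WT f, f3, m1, m2 and m3 it was 5.44, 5.73, 5.89, 6.98 and 5.93, the most uniform ratio of those examined in this group. In KO f2, m1, m2 and m3 it was 2.44, 0.707, 2.96 and 0.679, so no KO library reached the lowest WT value, and m1 and m3 lay below 1. At 2 weeks the ratio was 18.2, 4.41, 5.80 and 4.86 in WT f1, f4, m2 and m3 and 2.30, 1.41, 1.51 and 1.32 in KO f1, f4, m2 and m3. The high value of WT f1 came with the lowest Acvrl1 of that group, 64.8 CPM, and an Eng of 1116 CPM, near the group mean. The log2 ratio was lower in KO by a difference of -2.11 at 2 weeks (two-sided exact permutation p = 0.0286, n = 4 each) and of -2.13 at 4 weeks (two-sided exact permutation p = 0.0159, n = 5 and 4). Adjusted over the 24 ratio tests, 12 at each time, both permutation p-values were 0.152.

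The ratio of Eng to Bmpr2 separated the genotypes at 4 weeks, with a WT range of 83.3 to 173 and a KO range of 13.8 to 66.7. At 2 weeks it ran from 46.3 to 1942 in WT and 11.2 to 48.8 in KO and overlapped. The ratio of Eng to Tgfbr2 separated them at 2 weeks, with 33.7 to 80.4 in WT and 8.03 to 18.6 in KO, and overlapped at 4 weeks, with 24.03 to 73.7 and 4.01 to 26.9. The ratios of Eng to Tgfbr1 and of Eng to Tgfbr3 overlapped at both times. For Eng to Tgfbr1 the KO minus WT difference in log2 ratio was -0.55 at 2 weeks and -1.41 at 4 weeks (two-sided exact permutation p = 0.8 and 0.254), and for Eng to Tgfbr3 it was -1.99 and -2.12 (two-sided exact permutation p = 0.171 and 0.0476). None of the 24 ratios passed after adjustment, and the smallest adjusted permutation p was 0.152. Of the 7 ratios without Eng, no ratio separated the genotypes at either time. For Acvrl1 to Tgfbr1 the KO minus WT difference in log2 ratio was 1.56 at 2 weeks (two-sided exact permutation p = 0.629, n = 4 each) and 0.72 at 4 weeks (two-sided exact permutation p = 0.349, n = 5 and 4). For Bmpr2 to Tgfbr2 it was 0.998 (0.057 without WT f1 and 1.71 without WT m2) and 0.11, and for Tgfbr3 to Tgfbr2 -0.08 and 0.40. For Bmpr2 to Acvr2b at 4 weeks it was -2.70 (two-sided exact permutation p = 0.0952, n = 5 and 4). That value ran from -3.37 to -1.22 over single libraries, and Acvr2b was at or under the floor in 1 library. Ratios to Bmpr1a, and at 2 weeks to Acvr1 and Acvr2b, had denominators at or under the floor in 4 or more libraries and carry no further reading. The 2-week ratios of Eng and of Acvrl1 to Tgfbr1 include KO f1, where the Tgfbr1 count was 0. Over single libraries their differences ran from -2.69 to 0.76 and from -0.40 to 2.70.

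**Figure D5:**
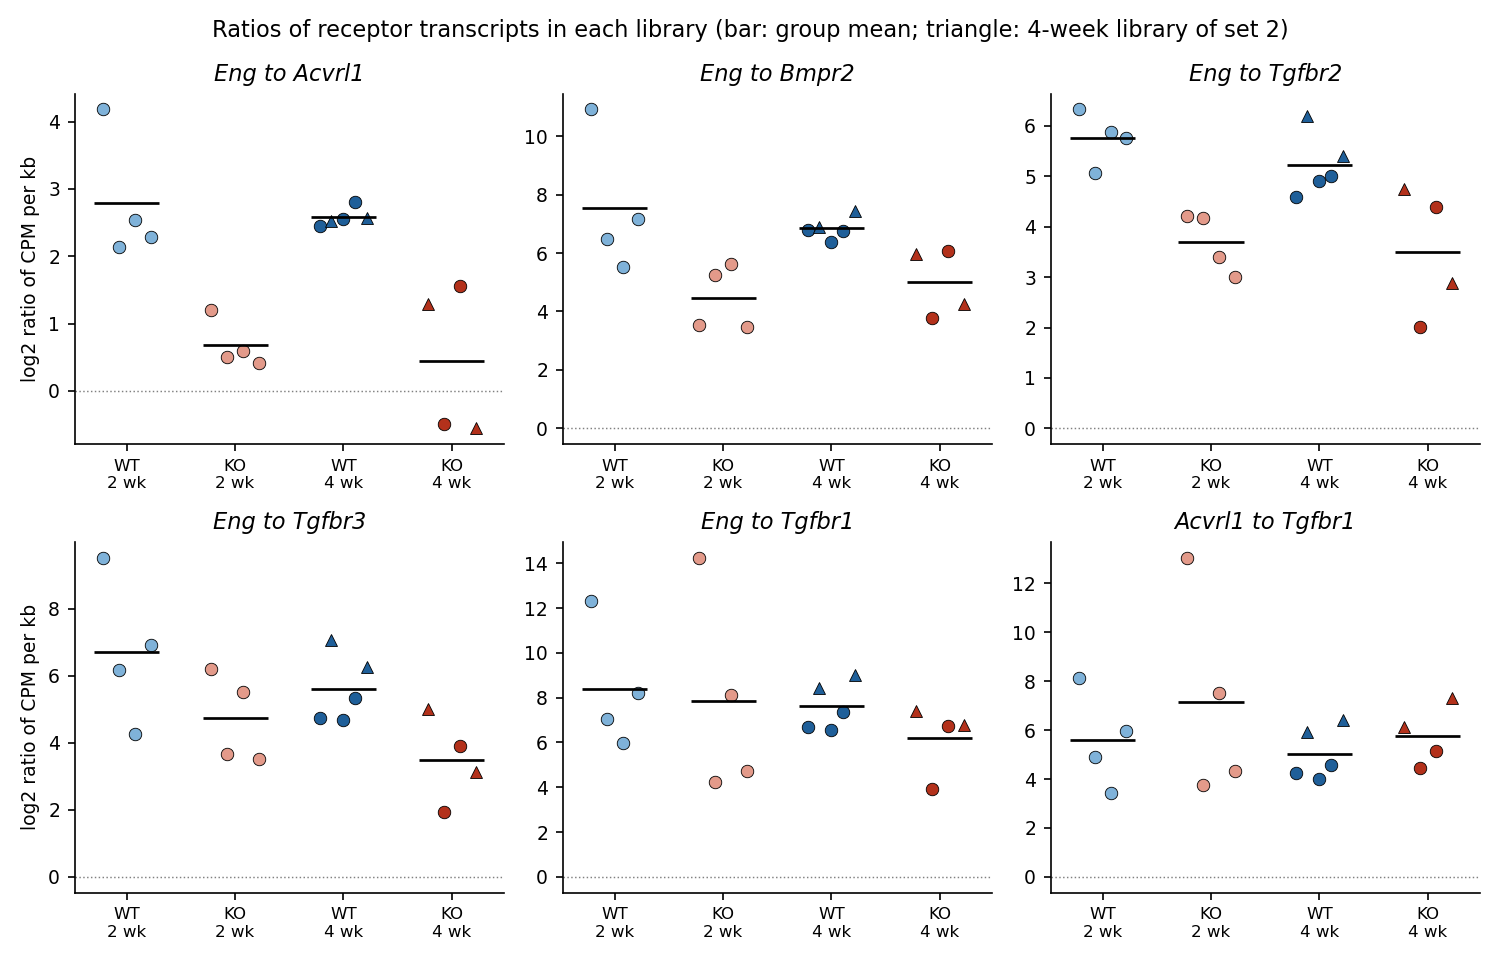
Log2 ratio of CPM per kb (vertical axes) for 6 pairs of receptors in the 17 libraries by genotype and time; bars are group means, triangles are 4-week libraries of set 2, and the dotted line marks equal levels. Eng to Acvrl1 separates KO from WT at both times, Acvrl1 to Tgfbr1 at neither, and the highest Acvrl1 to Tgfbr1 ratio, in 2-week KO f1, has a Tgfbr1 count of 0.

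Between the times, 9 receptors were tested in WT, in a fit where 8.04% of 13515 genes passed the adjusted threshold (776 higher and 310 lower at 4 weeks) and the median of all genes was 0.27 (1.04 with limma voom). None of the 9 passed in edgeR or limma voom, and 2 passed in DESeq2. At an unadjusted p under 0.05 there were 17.7% of all genes and 4 receptors, namely Eng, Acvrl1, Tgfbr2 and Tgfbr3, with log2 fold changes of 0.98 (SE 0.417), 0.99 (SE 0.363), 1.45 (SE 0.434) and 1.75 (SE 0.79). Tgfbr2 had an adjusted p of 0.0554 in edgeR and a range of 0.00501 to 0.26 over the alternatives. It passed with DESeq2, with DESeq2 size factors, without the sex term and in 5 other settings, and DESeq2 and the filter of at least 10 counts also passed Acvrl1. Of the 10 endothelial markers, 3 rose in the same fit, and the median of the 10 was 1.02. Pecam1 and Cdh5, which were among the 3, rose by 1.18 (SE 0.163; adjusted p = 0.000647 in edgeR) and 1.11 (SE 0.143; adjusted p = 0.000354 in edgeR). The times also differ in the number of genes detected and the mitochondrial share, and the part of either in these values was not tested.

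The scarcer receptors were recorded in more libraries at 4 weeks. At or under 3 counts were Acvr1 in 4 of 8 libraries at 2 weeks and 0 of 9 at 4 weeks, Acvr2b in 4 and 1, Bmpr1a in 8 and 4, and Tgfbr1 in 1 and 0. Where they were found at 2 weeks, levels could be high, with 864 counts of Acvr2b in WT m2 and 617 of Acvr1 in WT m3. In 2-week WT f1, Acvrl1, Bmpr2, Tgfbr1 and Tgfbr3 were each the lowest of the group, while Eng, Tgfbr2, Acvr2a and Acvr2b were not.

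Of 87 other genes of the pathway in 6 lists, edgeR passed no gene at 2 weeks (55 tested, 2 at an unadjusted p under 0.05), at 4 weeks (71 tested, 6 at an unadjusted p under 0.05) or in the averaged fit (69 tested, 12 at an unadjusted p under 0.05). Of all genes, 2.63%, 2.77% and 11.1% had an unadjusted p under 0.05 in these fits. The limma voom fit passed 0 in each, and DESeq2 passed 0, 2 and 6. Their median log2 fold change was -0.26 at 2 weeks, beside -0.06 for all genes, and 0.00 at 4 weeks, beside 0.01. Of 15 other receptors and co-receptors, 4 of 9 tested had a positive sign in the averaged fit. Nrp1, a co-receptor of VEGF and semaphorins, had an averaged change of -0.25 (SE 0.154). Of 19 receptor-associated proteins, 7 had a positive sign, and Fkbp1a, which encodes FKBP12, a protein that binds type I receptors, had an averaged change of -0.03 (SE 0.149).

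Of the 8 SMADs, the intracellular effectors, 1 of 7 tested had a positive sign in the averaged fit, with a median of -0.80 beside -0.02 for all genes. The medians at 2 and 4 weeks were -1.21 and -0.14. Smad3 had no count in the 4 KO libraries at 2 weeks but also at most 3 in 3 of 4 WT libraries. At 4 weeks its mean was 3.81 ± 2.70 CPM (WT; SD, n = 5) and 3.12 ± 2.26 CPM (KO; SD, n = 4). DESeq2 passed Smad3 in the averaged fit and for the difference between effects, and edgeR passed it in neither. Smad7, an inhibitory SMAD, had means of 25.9 ± 6.90 and 9.03 ± 10.4 CPM in WT and KO at 2 weeks (SD, n = 4 each) and of 53.8 ± 14.2 and 45.0 ± 12.9 CPM at 4 weeks (SD, n = 5 and 4). Its averaged log2 change was -0.91 (SE 0.628) and did not pass.

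Of 20 target genes, 12 of 19 tested had a positive sign in the averaged fit, with a median of 0.23. In edgeR 7 of the 19 had an unadjusted p under 0.05 there, beside 11.1% of all genes, and 0 passed after adjustment. Id1 and Id3, direct targets of BMP receptors, had averaged changes of -0.25 (SE 0.126) and -0.16 (SE 0.0721). The 2-week means of Id1 were 569 ± 98.7 CPM in WT and 464 ± 151 CPM in KO, and those of Id3 were 1021 ± 76.1 and 841 ± 153 CPM (SD, n = 4 each). Id2 and Hes1 had averaged changes of 0.18 (SE 0.198) and -0.42 (SE 0.41). None of the 4 passed. At 4 weeks 101 of the 15209 genes tested had every KO library above every WT library, the background for Angpt2 here and for Gdf15 below. Angpt2, an antagonist ligand of the receptor TIE2, ran from 28.5 to 62.0 CPM in WT and from 119.7 to 191.5 CPM in KO at 4 weeks, without overlap. Its log2 change there was 1.52 (SE 0.273), with an adjusted p of 0.9997 in edgeR, and DESeq2 passed it.

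Of 15 ligands, 0 of 4 tested had a positive sign at 2 weeks and 7 of 9 at 4 weeks, with medians of -1.47 and 0.27, and 2 of 9 did in the averaged fit. Gdf15, a stress-induced cytokine of the family, ran from 3.88 to 15.6 CPM in WT and from 19.9 to 55.8 CPM in KO at 4 weeks, without overlap. Its adjusted p in edgeR at 4 weeks was 0.9997, for a log2 change of 2.24 (SE 0.521), and DESeq2 passed it. Bmp2 had no count in the 4 KO libraries at 2 weeks and a WT mean of 8.89 ± 13.5 CPM (SD, n = 4), with 1 WT library at or under the floor. At 4 weeks its means were 10.5 ± 5.58 CPM (WT; SD, n = 5) and 23.0 ± 5.85 CPM (KO; SD, n = 4). Bmp2 also passed in DESeq2 in the averaged fit and for the difference between effects, and in edgeR in neither. Of 10 extracellular inhibitors, 1 of 4 tested had a positive sign at 2 weeks and 1 of 7 at 4 weeks, with medians of -1.71 and -0.42, whereas in the averaged fit 4 of 6 did, with a median of 0.89. Twsg1 and Fst, with the smallest p-values, had averaged changes of 1.74 (SE 1.18) and 1.89 (SE 1.55), each with 3 or more 2-week libraries at or under the floor.

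Between the times in WT, 7 of 69 pathway genes rose and 1 fell by edgeR's adjusted threshold beside 8.04% of all genes (14 pathway genes passed in DESeq2 and 10 in limma voom), with a median of 0.78 beside 0.27 for all genes. Nrp1 rose by 1.44 (SE 0.219), and the targets Id1, Id2, Id3 and Hes1 rose by 1.02 (SE 0.178), 1.62 (SE 0.285), 0.84 (SE 0.101) and 2.25 (SE 0.603). The ligand genes Gdf11 and Gdf15 rose from no count in the 4 WT libraries at 2 weeks to 0.735 ± 0.476 and 9.19 ± 5.32 CPM at 4 weeks (SD, n = 5). Fkbp1a fell by 0.86 (SE 0.204).

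The genes whose levels most resembled those of Eng were sought over the 17 libraries among 5089 genes, on log2 CPM centred on the mean of each time. They were Vasp (Pearson r = 0.737, Spearman rho = 0.696), Fkbp4 (0.69 and 0.806), Adarb1 (0.659 and 0.586), Tubb2a (0.637 and 0.686) and Tie1 (0.628 and 0.676). These points share libraries and the genotype difference of Eng. Without the 2 libraries farthest from the median of Eng, r was 0.58 for Vasp and 0.769 for Tie1, which encodes an endothelial receptor tyrosine kinase. The genes most like Acvrl1 were Mum1 (r = 0.927, rho = 0.73), Atp2a3 (0.907 and 0.877) and Rgs16 (0.907 and 0.904). For Mum1 the value was 0.966 within the 8 libraries of 2 weeks and -0.517 within the 9 of 4 weeks. The genes most like Bmpr2 were Prkaa1 (0.955 and 0.826), Lima1 (0.947 and 0.801) and Nckap1 (0.946 and 0.75). Without the 2 libraries farthest from the median of Bmpr2, their r was 0.765, 0.737 and 0.78.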

How the data were processed

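RNA of sorted bone marrow endothelial cells was sequenced as SmartSeq2 libraries, a full-length method without molecular identifiers, so floors are limits of counting alone. What the authors deposited is a raw count for each gene, not normalized. Adapter trimming (cutadapt), alignment (STAR) and counting (HTSeq 0.6.1p1) on GRCm38 are named in the submitters' processing notes; the strand setting is not given in the sources used here. Eng, Acvrl1, Tgfbr3, Bmpr1a and Acvr2a share exon bases with another gene, so counts there are uncertain. Symbols, lengths and sequences came from GENCODE M21, which named 49326 of 49585 identifiers.

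Counts were tested with edgeR 4.0.16 in R 4.3.3 (filterByExpr on genotype, TMM, robust quasi-likelihood fit, sex as a term), adjusted by Benjamini-Hochberg over all genes of a fit. Each time was fitted alone; a joint fit of 17 libraries gave the averaged effect, the difference of effects and the WT comparison of times. Effects are log2 fold changes of KO against WT. Alternatives were DESeq2 1.42.0, limma 3.58.1 voom, other scalings and filters, replicate blocks and leaving out each library. Ratios used counts plus 0.5 and exact permutation tests (SciPy 1.17.1). Log2 CPM used a prior count of 2. The analysis was tested on simulated counts. Deviations of same-numbered 4-week males correlated at 0.332, 0.108 and 0.471, and those of same-numbered 2-week libraries at -0.026 to 0.034. At 4 weeks pairs with different numbers reached 0.48, and correlations were positive within the 2 sets described above and negative across them, so these values do not tell a pairing by number from the sets. Animals are named only by title, so p-values measure the spread between these samples.

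The receptors and gene lists were chosen with earlier results of these data known. Text named all 10 receptors, the genes most like Eng (5), Acvrl1 and Bmpr2 (3 each) by Pearson r among genes of mean log2 CPM of at least 4, and from each list the genes past the threshold or, if none, the 2 with the smallest averaged p. Bmp2, Angpt2, Pecam1, Cdh5, Lyz2, Vcam1, C1qb and Cd68 were added after their values were seen, as were the sets of 4-week libraries and the fits with them, the males-only fit without a block, and the fits without the 2-week KO males m2 and m3.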

Additional observations from a re-analysis of the deposited data

Results flagged for a closer look

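The level of each receptor was examined for a single library far from the rest in the 38 combinations of gene and group with a value above the floor, and 2 were found; chance flags about 1 in 20. Acvr1 was at 1.48 CPM in the 2-week KO male m2, against 0 to 0.22 CPM in the other 3 libraries. Acvr2b was at 19.6 CPM in the 2-week KO female f1, with no count in the other 3.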

How the results depend on the processing

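Eng kept a negative KO effect at both times under every alternative run. Its call in the averaged fit was lost with limma voom (-1.94, adjusted p = 0.231), with the title number as a replicate block (-2.11, adjusted p = 0.688) and with a term for the sets of 4-week libraries (-1.83, adjusted p = 0.0668), leaving 0 receptors called, and by edgeR without 10 single libraries: WT f, f3, m1, m2 and m3 and KO f2, m1 and m3 at 4 weeks, and KO f1 and f4 at 2 weeks (range over single libraries -2.15 to -1.69; 0 or 1 receptor called). At 2 weeks DESeq2 called Eng (-1.96, adjusted p = 1.629e-13) as the 1 receptor among 149 genes, and limma voom called 12 genes. DESeq2 called 17 genes at 4 weeks. The Eng difference between times turned to -0.17 with limma voom and -0.40 with the block (-0.49 to 0.47 over single libraries). Paired by title number, the Eng to Acvrl1 difference was -2.11 at 2 weeks and -2.48 at 4 weeks, where sign flips cannot go below p = 0.125 and 0.25 (exact test); over single libraries at 2 weeks it was -2.33 to -1.64, with a smallest possible exact p of 0.0571.

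Genes called in the averaged fit, 13, became 8 without the low-count filter, 3 with at least 10 counts, 1004 with DESeq2, 30 without the sex term, 0 with the block, 325 without KO males m2 and m3 of 2 weeks, and 5 to 62 without single libraries. For the difference between effects, 14 became 6, 0, 929 and, with limma voom, 8, then 0 with the block, 8 with the set term, 278 without those males and 7 to 52 without single libraries. For WT between times, 1086 became 580, 639 and 2090 under the filters and DESeq2, and 520 to 1398 without single libraries. Receptors called there were 1 with DESeq2 size factors, no sex term, the set term or without those males, 2 with at least 10 counts or DESeq2, and 0 or 1 without single libraries. The median of all genes there was 1.04 with limma voom. The blocks lie within a time, so they gave no value for it.

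None of the following effects was called in any setting, and their signs turned. At 2 weeks Acvrl1 was -0.0041 with at least 10 counts and -0.11 without the KO males, Tgfbr1 -1.55 with limma voom and -1.42 with the block, Tgfbr2 -0.80 and Acvr2b 0.085 without the KO males, and Tgfbr3 0.041 with upper quartile scaling, 0.0041 without the filter, 0.16 with the block and 0.54 without the KO males. At 4 weeks limma voom gave Acvrl1 -0.11 and Tgfbr3 0.058. Tgfbr3 was 0.017 and Acvr2a 0.055 without the sex term, and Tgfbr3 was 0.14 with the set term. In males with the block, Tgfbr3, Acvr1 and Acvr2a were 0.14, -0.025 and 0.21, and without it 0.20, -0.036 and 0.36. Limma voom gave 0.19 for Acvr2b between times in WT. The paired Acvrl1 to Acvr1 difference at 4 weeks was 0.22.

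Over single libraries at 2 weeks, Acvrl1 ran from -0.24 to 0.53, Tgfbr1 from -1.98 to 0.99, Tgfbr2 from -0.34 to 0.47, Tgfbr3 from -0.93 to 0.56 and Acvr2a from -1.01 to 0.58. At 4 weeks Acvrl1 ran from -0.063 to 0.21, Tgfbr3 from -0.45 to 0.26, Acvr1 from -0.026 to 0.19 and Acvr2a from -0.47 to 0.37, and between times in WT Acvr2a from -0.33 to 0.995. Ratio differences at 2 weeks ran from -2.69 to 0.76 for Eng to Tgfbr1, -0.40 to 2.70 for Acvrl1 to Tgfbr1 and -0.82 to 0.78 for Tgfbr3 to Tgfbr2. At 4 weeks they ran from -0.22 to 0.042 for Acvrl1 to Acvr1, -1.33 to 0.57 for Acvrl1 to Bmpr1a, -0.033 to 0.35 for Bmpr2 to Tgfbr2 and -0.37 to 0.18 for Bmpr2 to Acvr2a. The causes were not tested. At or under the floor, where counts give no usable level, were Bmpr1a in 8 of 8 libraries at 2 weeks and 4 of 9 at 4 weeks, and Acvr1 and Acvr2b in 4 of 8 at 2 weeks.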
